A study of Mus musculus with 2 samples.

Results

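The interstitial stroma of the mouse testis at postnatal day (PD) 7 held 282 proliferating cells among 13789 retained cells, 97 of 5077 in the control library and 185 of 8712 in the *Brca1* vKO library. Retained cells had 750 or more detected genes, and mitochondrial genes gave no more than 10% of their unique molecular identifier (UMI) counts. Members were then chosen by summed UMIs per 10000 UMIs of the cell. The stromal sum of *Dlk1*, *Dcn*, *Col3a1*, *Pdgfra* and *Tcf21* had to be at least 10, and the cycling sum of *Mki67*, *Top2a*, *Ube2c*, *Cdk1* and *Prc1* at least 3. Sums for peritubular myoid cells (*Acta2*, *Myh11*, *Tagln*) and Sertoli cells (*Clu*, *Amhr2*, *Rhox8*, *Cst9*) had to stay under 10, those for Leydig cells (*Cyp17a1*, *Cyp11a1*, *Hsd3b1*) and pericytes (*Rgs5*, *Higd1b*, *Cox4i2*) under 5, and that for germ cells (*Ddx4*, *Dazl*) under 2. These genes chose the cells, so their levels in the cells are a description and no evidence of anything further.

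Testes of 1 control mouse and 1 *Brca1* vKO mouse were dissociated with collagenase IV and TrypLE Express and profiled on the 10x Genomics Chromium platform. *Brca1* vKO mice are *Brca1* f/- *Vasa-Cre* animals, in which 1 *Brca1* allele is floxed and the other is already deleted in every cell, while Cre is produced in germ cells only. Controls were littermates whose own *Brca1* and Cre alleles are not given in the sources used here. Stromal cells are therefore not a target of the Cre, although those of the *Brca1* vKO animal carry a deleted allele. With 1 library per genotype, no difference between genotypes could be tested, and every interval below is a 95% exact interval that covers counting error only.

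Interstitial stromal cells are the mesenchymal cells between the seminiferous tubules. They lay down collagen-rich matrix, receive hedgehog and platelet-derived growth factor signals from other testis cells, and include precursors of adult Leydig cells, the androgen-producing cells. In dividing cells, genes for DNA replication are switched on around the entry into S phase by E2F transcription factors, and genes for mitosis are switched on later by a complex containing MuvB proteins, B-MYB and FOXM1. Core histone genes are transcribed mainly while DNA is being copied.

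The letters that these factors are known to recognise were looked for in RefSeq promoter sequences (build GRCm38.p6, 250 bases before to 50 bases after a gene's start, 27025 genes). The CHR letters TTTGAA and the CCAAT box, each on either strand, mark many mitotic promoters. Both were present in the promoters of all 5 cycling genes of the rule, against 8.97% of all genes. Of the mitosis genes described below, which leave out those 5, 45 of 52 matched a promoter, and 30 of these (66.7%) held CHR and 25 (55.6%) held both, where CHR alone was found in 20.2% of all genes. E2F-type letters (TTTGGCGC or TTTCCCGC, either strand) were in 2 of the same 45 and in 15 of 40 replication genes (37.5%), against 1.80% of all genes. CHR was in 6 of the 40 replication genes. CCAAT alone was less particular to mitosis genes. It was in 33 of 45 mitosis genes (73.3%), 23 of 40 replication genes (57.5%) and 14 of 15 histone genes, against 41.1% of all genes. A TATA box (TATAAA, either strand) was in 10 of 15 histone genes, against 15.7% of all genes. A match describes the letters in this window and not a bound factor.

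Promoters of 3 cycling genes of the rule and 2 replication genes are shown to compare both kinds, written 5′ to 3′ on the gene's strand. Capitals mark CHR and CCAAT in the first 3 and E2F-type letters in the last 2. The last 2 windows also hold CCAAT letters, which are left in lower case there. *Mki67* (a chromosome coating protein of cycling cells) is shown at chr7:135716330-135716629 on the minus strand, *Top2a* (topoisomerase that untangles DNA) at chr11:99024140-99024439 on the minus strand, and *Cdk1* (the kinase that drives mitotic entry) at chr10:69352863-69353162 on the minus strand. *Pclaf* (a PCNA-binding replication factor) is shown at chr9:65890073-65890372 on the plus strand and *Mcm3* (a subunit of the replicative helicase) at chr1:20820263-20820562 on the minus strand.
Mki67: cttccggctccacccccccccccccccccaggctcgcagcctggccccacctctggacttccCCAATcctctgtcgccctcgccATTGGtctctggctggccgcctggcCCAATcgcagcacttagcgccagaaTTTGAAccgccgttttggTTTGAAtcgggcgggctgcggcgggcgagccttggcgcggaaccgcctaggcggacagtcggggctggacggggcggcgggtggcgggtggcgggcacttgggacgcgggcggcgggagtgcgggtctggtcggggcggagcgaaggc
Top2a: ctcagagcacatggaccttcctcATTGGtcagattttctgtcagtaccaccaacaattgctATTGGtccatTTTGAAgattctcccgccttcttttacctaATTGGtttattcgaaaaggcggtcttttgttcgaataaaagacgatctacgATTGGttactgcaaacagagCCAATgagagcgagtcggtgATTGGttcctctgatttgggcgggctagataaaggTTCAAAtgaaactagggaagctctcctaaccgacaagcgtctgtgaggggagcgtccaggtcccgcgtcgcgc
Cdk1: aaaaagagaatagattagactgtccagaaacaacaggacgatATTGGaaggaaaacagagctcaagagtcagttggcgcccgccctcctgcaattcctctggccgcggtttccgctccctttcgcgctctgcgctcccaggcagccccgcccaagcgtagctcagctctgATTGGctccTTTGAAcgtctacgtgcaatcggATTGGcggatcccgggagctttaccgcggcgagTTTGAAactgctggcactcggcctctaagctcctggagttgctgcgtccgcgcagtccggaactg
Pclaf: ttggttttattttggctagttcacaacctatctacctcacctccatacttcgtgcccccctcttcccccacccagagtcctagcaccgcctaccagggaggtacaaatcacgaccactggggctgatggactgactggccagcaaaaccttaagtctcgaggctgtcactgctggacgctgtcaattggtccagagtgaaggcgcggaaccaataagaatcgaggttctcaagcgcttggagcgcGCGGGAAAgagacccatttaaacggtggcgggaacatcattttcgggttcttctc
Mcm3: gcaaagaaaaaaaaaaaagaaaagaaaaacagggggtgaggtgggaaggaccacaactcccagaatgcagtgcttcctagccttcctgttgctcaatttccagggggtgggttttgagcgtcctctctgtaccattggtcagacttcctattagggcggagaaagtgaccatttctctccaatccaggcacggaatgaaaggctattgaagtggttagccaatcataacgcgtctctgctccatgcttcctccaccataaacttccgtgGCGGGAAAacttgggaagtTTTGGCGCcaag
The E2F-type letters occurred once in the *Pclaf* window and 2 times in the *Mcm3* window, and the CHR letters 2 times in each of the others.

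The libraries held 5812 control and 9456 *Brca1* vKO barcodes before filtering, and more *Brca1* vKO cells had been loaded. Members had a median of 20903 UMIs in control (range 1103 to 53600) and 15792 in *Brca1* vKO (2057 to 47648), against 15588.5 and 11772 in stromal cells below the cycling threshold, called non-cycling here (648 and 1598 cells). Scrublet, a doublet caller, marked 1 member in each library. Of 21 barcodes found in both libraries, 0 belonged to members.

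*Dlk1* and *Pdgfra* belong to the stromal sum and *Mki67* to the cycling sum, so their detection follows from the choice of cells and does not check the name given to them. *Dlk1*, a surface and secreted Notch-family protein of immature mesenchyme, was detected in 97.9% of control and 99.5% of *Brca1* vKO members, and *Pdgfra*, a receptor for platelet-derived growth factor, in 93.8% and 98.9%. In proliferating Sertoli cells, chosen by the mirrored rule (734 and 1546 cells), *Dlk1* was detected in 12.9% and 21.99% and *Pdgfra* in 4.50% and 11.1%. Members and non-cycling stromal cells differed little, with *Dlk1* in 97.8% and 98.7% of the latter. *Mki67* was detected in 84.5% and 74.6% of members and in 4.78% and 4.76% of non-cycling stromal cells. *Pclaf*, which the rule did not use, was detected in 83.5% and 71.9% of members, in 9.72% and 7.88% of non-cycling stromal cells, and in 63.2% and 62.7% of proliferating Sertoli cells.

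Genes that mark other cell types were present to different degrees. The 8 endothelial genes summed to 199.8 and 188 CPM (UMIs per 1000000 UMIs) in control and *Brca1* vKO members, above the 94.2 and 87.0 CPM of all retained cells and near the 176 and 191 CPM of non-cycling stromal cells. The 6 myoid genes outside the rule summed to 440.4 and 447 CPM, against 418 and 513 CPM in all retained cells. The 5 Leydig genes outside the rule summed to 48.2 and 116 CPM, against 30.5 and 55.0 CPM, with *Hsd3b6* at 0 in both libraries. The part of RNA from these cell types was not tested. *Adgre1*, *C1qa*, *C1qb* and *C1qc* of macrophages and *Kdr*, *Flt1* and *Plvap* of endothelium were at 0 UMIs in control members, and all 5 neutrophil genes (*S100a8*, *S100a9*, *Ngp*, *Camp*, *Ltf*) were at 0, which allows up to 1.49 CPM (3 counts) in 2011629 UMIs. The other 4 of 8 macrophage and 5 of 8 endothelial genes were detected in control members. In *Brca1* vKO members all 8 endothelial and 6 of 8 macrophage genes were detected, with *Csf1r* and *C1qb* at 0. The neutrophil genes summed to 13.5 CPM in *Brca1* vKO members against 547 CPM in all cells of that library. Of the 8 Sertoli genes outside the rule, all 8 were detected, at 285 CPM in control and 502 CPM in *Brca1* vKO members, against 3501 and 4871 CPM in all retained cells. Haemoglobin RNA differed widely between libraries. The 5 red cell genes summed to 2432 CPM in control members, but 1 cell held 4422 of the 4893 UMIs, 19.5% of that cell's RNA. This was also the control member that Scrublet marked. Without it the control value was 237 CPM, beside 66.6 CPM in *Brca1* vKO members.

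The share of interstitial stromal cells that were cycling was similar in both libraries. In the control library 97 of 745 stromal cells passed the cycling threshold (13.02%, 10.7 to 15.7), and in the *Brca1* vKO library 185 of 1783 (10.4%, 8.998 to 11.9). The *Brca1* vKO share divided by the control share was 0.797, with an interval of 0.620 to 1.03 that includes 1. The same ratio in Sertoli cells was 1.08 (0.990 to 1.18), from 32.0% and 34.6%. Sertoli cells are expanding at this age, and their cycling share stood well above that of the stroma in both libraries.

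**Figure D1:**
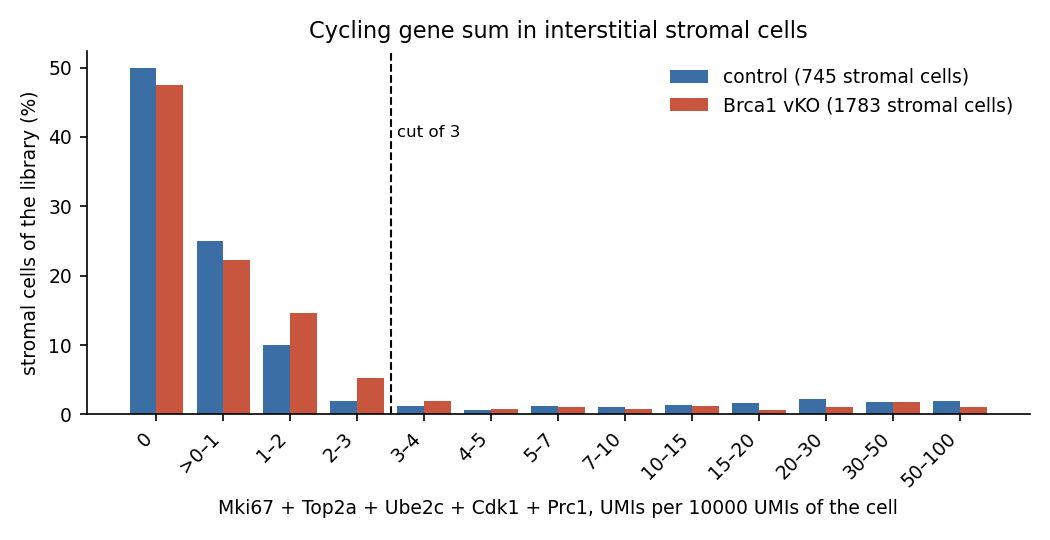
Share of the interstitial stromal cells of each library (y axis, %) by their cycling sum (x axis, UMIs per 10000 UMIs of the cell, in unequal bins), for 745 control cells and 1783 *Brca1* vKO cells; the dashed line is the threshold of 3. The bins from 0 hold 49.9% and 47.4% of cells, no gap separates cells on either side of the threshold, and the bin from 2 to 3 holds 2.01% of control and 5.33% of *Brca1* vKO cells.

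The ratio depended on where the threshold stood, and a larger share of *Brca1* vKO cells lay next to it. Just outside it, from 2 to 3 UMIs per 10000, were 15 control cells (2.01%) and 95 *Brca1* vKO cells (5.33%), and just inside it, from 3 to 4, were 9 and 35 members. With a threshold of 2 the shares were 15.03% and 15.7% (ratio 1.04, 0.836 to 1.31), and with a threshold of 5 they were 11.1% and 7.63% (ratio 0.685, 0.517 to 0.911). After every cell was thinned to 5000 UMIs, which removes the depth difference, the shares were 12.7% and 12.4% (ratio 0.972, 0.758 to 1.26). Thinning left out 21 control and 35 *Brca1* vKO stromal cells that were shallower. Members with a single detected cycling gene numbered 3 of 97 and 15 of 185, while all 5 genes were detected in 56 (57.7%) and 84 (45.4%). As a share of all retained cells, members made up 1.91% of control and 2.12% of *Brca1* vKO cells (ratio 1.11, 0.865 to 1.44), a share that also moves with the number of cells of every other type.

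Set against non-cycling stromal cells of their own library, members carried a broad cell cycle programme on a stromal background that was only slightly lower. UMIs were summed over the cells of each kind, expressed as CPM, and a gene was called when (CPM + 10) differed by more than 2-fold in the same direction in both libraries. Of 13248 genes with at least 50 UMIs, 370 (2.79%) were called higher in members and 3 (0.0226%) lower, and the median log2 ratio over all genes was -0.01 in control and 0.00 in *Brca1* vKO.

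Mitosis genes stood furthest apart. Cells were split on 5 cycling genes whose promoters all held CHR and CCAAT, as many mitosis promoters did. The levels of other cycle genes, and the order of their lists, therefore describe that split and support nothing further. All 52 genes of the mitosis list, which holds spindle, kinetochore and condensin genes and leaves out the rule's genes, were called higher, and their sum was 18.9 times the non-cycling level in control (18.4 to 19.5) and 17.2 times in *Brca1* vKO (16.8 to 17.6). *Hmgb2*, a chromatin protein of dividing cells, had the highest level of the list, 1986 CPM in control and 1699 CPM in *Brca1* vKO members against 193 and 186 CPM in non-cycling cells. *Knl1*, a kinetochore scaffold, stood at 253 and 205 CPM against 2.43 and 2.50. *Cenpf*, a kinetochore protein of late cycle, stood at 545 and 487 CPM against 7.99 and 7.70. *Tpx2* and *Nusap1*, both spindle assembly factors, were 72.6 and 66.1 times as high in control members and 56.0 and 68.5 times as high in *Brca1* vKO members. *Birc5* (survivin, a chromosomal passenger) was 65.5 and 58.7 times and *Cdca3*, a trigger of mitotic entry, 55.1 and 53.6 times as high. *Cks1b*, which serves cyclin-dependent kinases outside mitosis too, had the lowest ratio of the 52 genes in both libraries, at 2.55 and 2.40 times. The median log2 ratio of the list was 3.32 and 3.16.

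**Figure D2:**
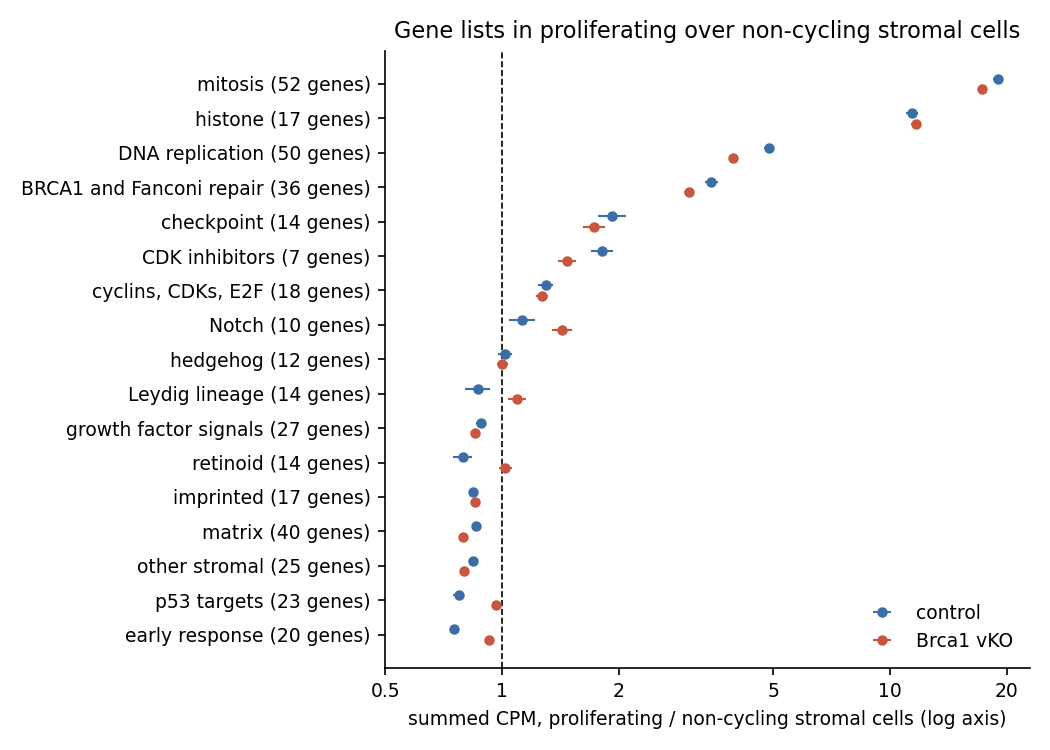
Summed CPM of 17 gene lists in proliferating divided by non-cycling stromal cells (x axis, log scale, 1 marks equal levels) for the control and the *Brca1* vKO library; bars are 95% exact intervals for counting error. Both libraries order the lists alike at the top, from mitosis (18.9 and 17.2) to DNA replication (4.86 and 3.93), while the matrix list lies at 0.86 and 0.79.

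Replication genes differed less. Of 50 genes for helicase subunits, polymerases, nucleotide synthesis and origin licensing, 41 were called higher and 0 lower, and the sum was 4.86 times the non-cycling level in control (4.74 to 4.99) and 3.93 times in *Brca1* vKO (3.85 to 4.01). *Pclaf* was the highest, at 528 and 370 CPM against 9.74 and 10.2. *Tk1*, which salvages thymidine, was 37.5 and 29.2 times as high, and *Rrm2*, the regulated subunit of ribonucleotide reductase, 47.5 and 23.5 times. The helicase subunits *Mcm2* to *Mcm7* ran lower, between 2.50 times (*Mcm4*) and 5.51 times (*Mcm5*) in control. *Pcna*, the sliding clamp, was already at 68.8 and 74.3 CPM in non-cycling cells and reached 287 and 232 CPM in members. *Nasp*, a histone chaperone, was not called at 2.22 and 1.71 times. The median log2 ratio of the list was 1.75 and 1.48.

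Histone genes of the clusters stood between the mitosis and replication lists, with 15 of 17 called higher and sums 11.4 and 11.7 times the non-cycling level. *Hist1h1b*, a linker histone, stood at 1439 and 1358 CPM against 41.3 and 41.1. *Hist1h2ap*, a histone H2A gene, stood at 857 and 1012 CPM against 6.72 and 12.96, and *Hist1h2ae* at 303 and 383 CPM against 3.99 and 7.29. *Hist3h2a* stayed at 0.899 and 0.893 times. Histone copies are nearly alike in sequence, so reads may be split between them and single copies are uncertain.

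Regulators of the cycle were split. Of 18 cyclin, kinase, E2F and pocket protein genes, 7 were called higher and 0 lower. *Ccna2*, the S and G2 phase cyclin, stood at 169 and 126 CPM in members against 1.36 and 1.38. *E2f7*, a late repressor of E2F targets, was 31.8 and 27.4 times as high, and *Mybl2* (B-MYB) 19.6 and 16.3 times. D-type cyclins, which start the cycle, did not follow: *Ccnd2* stood at 110 and 151 CPM in members below 297 and 281 CPM in non-cycling cells (0.372 and 0.537 times), *Ccnd3* at 179 and 192 CPM against 258 and 229, and *Ccnd1* at 5.47 and 6.60 CPM against 7.69 and 5.81. *Myc*, a growth-promoting factor, was at 0.683 and 0.869 times. Among 5 inhibitors with enough UMIs, *Cdkn2c* (p18) was called at 8.88 and 7.005 times and *Cdkn2d* (p19) at 6.56 and 5.73 times. *Cdkn1c* (p57), an imprinted inhibitor linked to arrest, was the most abundant at 267 and 246 CPM in members, against 236 and 274 CPM in non-cycling cells.

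Genes of homologous recombination and the Fanconi pathway were also higher in members. Of 36 genes, 16 were called higher and 0 lower, with sums 3.46 and 3.03 times the non-cycling level. *H2afx* (histone H2AX) held 31.1% of the list's UMIs in members, and without it the sums were 2.83 and 2.36 times. *Bard1*, the obligate partner of BRCA1, stood at 51.7 and 39.9 CPM in members against 1.46 and 2.30. *Brip1*, a helicase that binds BRCA1, was 21.1 and 15.8 times as high. *Babam2*, a member of another BRCA1 complex, was at 0.769 and 1.10 times and not called. Of 14 checkpoint genes 2 were called higher, *Chek2*, a damage-activated kinase, at 9.62 and 7.76 times and *Wee1*, an inhibitor of CDK1, at 3.47 and 3.002 times.

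The stromal programme persisted at slightly lower levels. The 25 stromal genes outside the rule summed to 0.84 and 0.80 times the non-cycling level, with 0 called in either direction and 13 of 23 tested lower in both libraries. *Col1a1*, a fibrillar collagen chain, stood at 1770 and 1346 CPM in members against 1959 and 1985. *Ebf1*, a mesenchymal transcription factor, stood at 1760 and 1961 CPM against 2184 and 2448, and *Meg3*, an imprinted noncoding RNA, at 1586 and 1783 CPM against 2408 and 2525. *Nr2f2* (COUP-TFII), a transcription factor of Leydig cell precursors, was near equal at 1.05 and 1.06 times. *Ptn*, a secreted growth factor, went the other way at 1.51 and 1.35 times.

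Matrix genes behaved in the same way, apart from *Ogn*. Of 39 matrix genes tested, 25 were lower in both libraries and 1, *Ogn*, was called, with sums at 0.86 and 0.79 times and a median log2 ratio of -0.15 and -0.22. *Ogn* (osteoglycin, a small leucine-rich proteoglycan) stood at 163 and 168 CPM in members against 503 and 453 CPM in non-cycling cells (0.323 and 0.371 times). *Mfap4*, a microfibril protein, was at 0.619 and 0.572 times, while *Fn1* (fibronectin) was at 1.18 and 1.17 times. The other genes called lower were *Khk*, which phosphorylates fructose (23.9 and 33.9 CPM against 57.7 and 79.2), and *Tmem150a* (4.47 and 5.03 CPM against 20.6 and 23.3). *Aldoa*, a glycolytic enzyme, *Fabp3*, a fatty acid carrier, *Ypel3*, linked to growth arrest, *Kdm5b*, a histone demethylase, and *Il1rapl2* followed in the order of the ratio, at 0.340, 0.370, 0.435, 0.365 and 0.552 times in control. The symbol *Aldoa* is also carried by another gene entry of the annotation, whose level is not given here. *Lyz2*, a macrophage gene, was at 0.497 and 1.57 CPM in members against 9.74 and 18.4 CPM in non-cycling cells. Macrophage genes as a list summed to 0.290 and 0.367 times, so that the lower *Lyz2* moved with RNA of another cell type, whose part was not tested.

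Signalling lists other than Notch stayed close to the non-cycling level. The 12 hedgehog genes summed to 1.02 and 1.002 times, with 0 called. *Ptch1*, receptor and target of the pathway, stood at 320 and 313 CPM in members against 358 and 300, and *Gli3*, a transcription factor of the pathway that mostly acts as a repressor, at 103 and 77.3 CPM against 43.9 and 42.3. Notch genes summed to 1.12 and 1.42 times, with *Hes1*, its main target, at 1.23 and 1.56 times. *Hes1* held 54.2% of that list's UMIs in members. Without it the list was at 1.02 times in control (0.909 to 1.14) and 1.30 times in *Brca1* vKO (1.19 to 1.41). Growth factor and receptor genes summed to 0.88 and 0.85 times, led by *Igf1*, insulin-like growth factor, at 0.728 and 0.661 times. Imprinted genes summed to 0.84 and 0.85 times, with *H19* at 1.53 and 1.21 times and *Mest* at 1.31 and 1.17 times on the other side.

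Members differed widely among themselves, and the replication and mitosis lists separated them. Per cell, the replication sum ran from 2.73 to 129 UMIs per 10000 in control with a median of 50.02, and from 0 to 117 in *Brca1* vKO with a median of 32.4. The mitosis sum ran from 2.07 to 280 with a median of 77.3, and from 0 to 319 with a median of 69.9. The control medians were used to divide the members of both libraries into 4 ranges. Cells high in both lists numbered 21 (21.6%) and 36 (19.5%), cells high in replication alone 28 (28.9%) and 42 (22.7%), cells high in mitosis alone 28 (28.9%) and 52 (28.1%), and cells low in both 20 (20.6%, 13.1 to 30.03) and 55 (29.7%, 23.2 to 36.9). Cells low in both had the lowest median cycling sum of the 4 ranges, 4.46 and 3.97 UMIs per 10000, near the threshold of 3. Their median depth was also the lowest, at 12217.5 and 11491 UMIs, and whether all of them were dividing was not tested. The 4 ranges are cut from a continuous score, with 16 and 22 members within 10% of a dividing value. Histone RNA, which was not used for the division, had a median sum of 118 and 113 UMIs per 10000 in cells high in both lists, against 7.24 and 6.26 in cells high in replication alone and 6.20 and 11.0 in cells high in mitosis alone. Of the non-cycling cells, 5 of 648 and 20 of 1598 passed the replication value, and 0 passed the mitosis value, which allows a share of up to 0.463% and 0.188% by a limit of 3 counts, and up to 0.568% and 0.231% by the Clopper-Pearson interval.

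**Figure D3:**
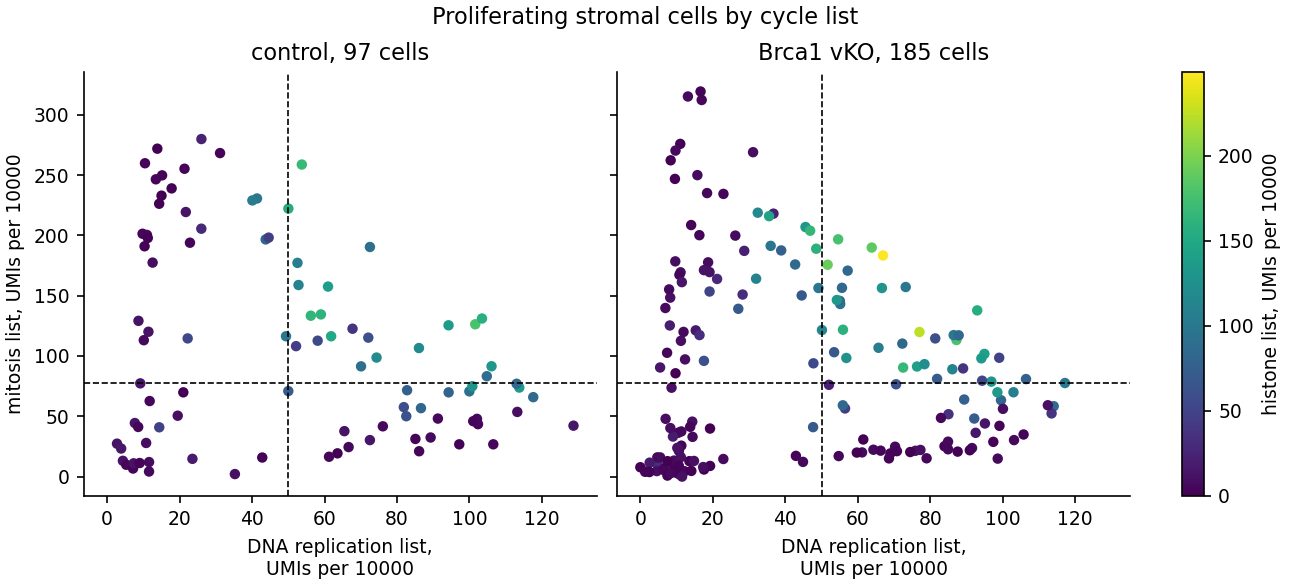
Each proliferating stromal cell by its replication list (x axis) and mitosis list (y axis), both in UMIs per 10000 UMIs of the cell, coloured by its histone list, for 97 control and 185 *Brca1* vKO cells; dashed lines are the control medians (50.02 and 77.3). Points run along an arc from high replication through high histone RNA to high mitosis, and a group near the origin holds 20 control and 55 *Brca1* vKO cells low in both lists.

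Single genes showed the order of the cycle across the ranges. In control, *Ccne2*, the cyclin of S phase entry, stood at 145 CPM in cells high in replication alone, 50.7 CPM in cells high in both and 1.63 CPM in cells high in mitosis alone, and in *Brca1* vKO at 113, 72.5 and 4.71 CPM. *Ccne2* belongs to the replication list, and *Ccnb1* and *Cdc20*, mitotic regulators, belong to the mitosis list, so their values describe the division. *Ccnb1* stood at 16.1 CPM in cells high in replication alone against 376 CPM in those high in mitosis alone in control, and at 15.4 against 307 CPM in *Brca1* vKO. *Ccna2*, in neither list, stood at 80.5, 229 and 262 CPM in cells high in replication alone, in both and in mitosis alone in control, and at 34.5, 173 and 232 CPM in *Brca1* vKO. *Hist1h1b*, also in neither, peaked in cells high in both, at 1069, 3443 and 544 CPM in control and at 821, 3649 and 1050 CPM in *Brca1* vKO.

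Inhibitors did not share 1 order across the ranges, nor did D-type cyclins. *Cdkn2c* was higher in cells high in mitosis alone than in those high in replication alone, 2.74 times in control (1.98 to 3.85) and 4.08 times in *Brca1* vKO (2.93 to 5.82), and *Cdkn1b* (p27) 2.70 times (1.66 to 4.51) and 4.28 times (2.68 to 7.16). *Cdkn1a* (p21) went the other way at 0.127 and 0.162 times, on 2 and 11 UMIs in the mitosis range, and *Cdkn1c* was at 0.966 (0.765 to 1.22) and 0.794 (0.657 to 0.961) times. *Ccnd2* was at 0.445 and 0.433 times. *Ccnd3* was at 0.496 times in control (0.370 to 0.659) and at 0.832 in *Brca1* vKO, with an interval of 0.669 to 1.035 that includes 1. *Ogn* followed *Ccnd2*, at 50.5 CPM in cells high in mitosis alone and 266 CPM in cells high in replication alone in control, and at 72.5 and 260 CPM in *Brca1* vKO. *Pdgfra* was 1.496 and 1.72 times as high in cells high in mitosis alone, and *Dlk1* was at 0.744 and 1.001 times. Both belong to the stromal sum of the rule, so these values are a description and do not speak for other stromal genes. *Brca1* was at 0.229 times in control and 0.271 times in *Brca1* vKO.

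**Figure D4:**
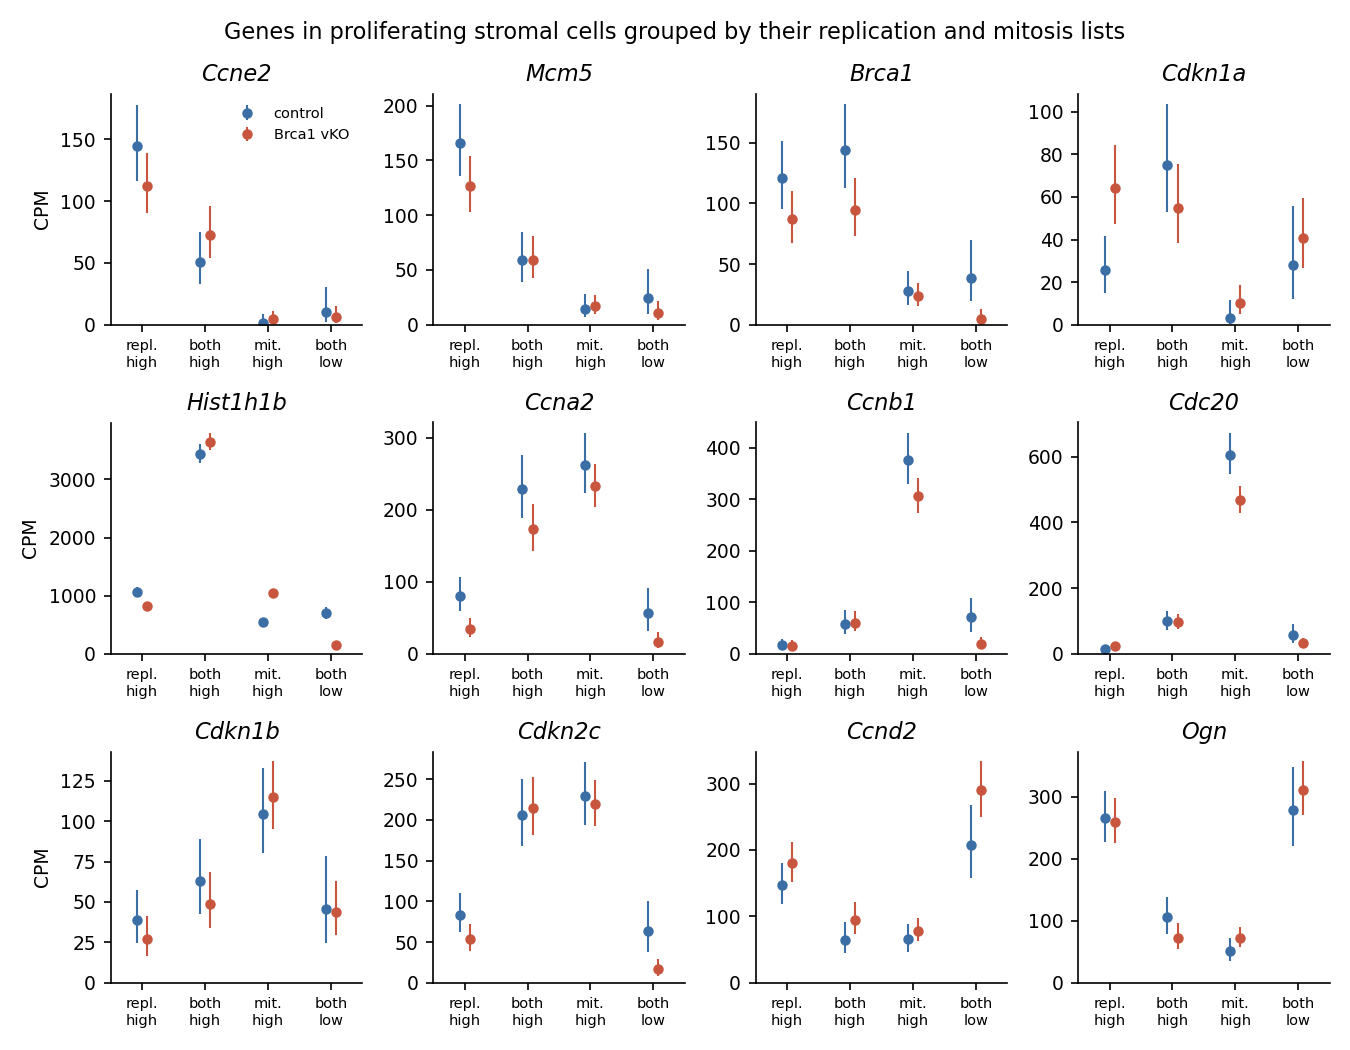
CPM (y axis, linear, own scale in each panel) of 12 genes in 4 ranges of proliferating stromal cells, for control and *Brca1* vKO; points are sums over the cells of a range and bars are 95% exact Poisson intervals. *Ccne2*, *Mcm5* and *Brca1* are highest in cells high in replication or in both lists, *Ccnb1* and *Cdc20* in cells high in mitosis, and *Ogn* and *Ccnd2* in cells outside the 2 mitosis-high ranges.

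*Brca1* itself was lower in the members of the *Brca1* vKO library. In control members it stood at 86.5 CPM (174 UMIs, detected in 58.8% of cells) and in *Brca1* vKO members at 50.3 CPM (160 UMIs, 39.5%), a ratio of 0.581 (0.466 to 0.725). Non-cycling stromal cells held 3.41 and 3.16 CPM, so that members stood 25.4 and 15.9 times above them. Counts per gene do not separate transcripts of a deleted allele from intact ones, so this value does not check the deletion. Proliferating Sertoli cells, also outside the Cre's target, stood at 58.8 and 43.8 CPM, a ratio of 0.745 (0.693 to 0.8003). Within ranges, the ratio was 0.658 (0.462 to 0.936) in cells high in both lists, 0.720 (0.511 to 1.01) in cells high in replication alone, 0.849 in cells high in mitosis alone, and 0.117 in cells low in both, from 11 and 3 UMIs. Without the cells low in both lists, whose share was larger in *Brca1* vKO, it was 0.660.

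Between genotypes few genes of the members passed 2-fold. Of 9246 genes with at least 50 UMIs, 24 (0.26%) were higher and 5 (0.0541%) lower in *Brca1* vKO, and the median log2 ratio was -0.01. Neither library has a replicate, so the spread between animals behind these values is unknown, and with members from 1 library per genotype a change within cells and a change in which cells were captured cannot be told apart.

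Cycle lists were somewhat lower in *Brca1* vKO members. The replication list was at 0.842 (0.821 to 0.862) with 46 of 50 genes below 1 and a median log2 ratio of -0.21, and the mitosis list at 0.860 (0.845 to 0.875) with 50 of 52 below 1 and a median of -0.22. In both lists 0 genes passed 2-fold. The histone list was at 0.947 and the repair list without *Brca1* at 0.897, with 26 of 30 tested genes below 1 and a median of -0.24. With *Brca1* kept but *H2afx* left out, the repair list was at 0.811 (0.773 to 0.851). Proliferating Sertoli cells gave 0.927, 0.843 and 0.893 for replication, mitosis and histone genes, and non-cycling stromal cells 1.04, 0.945 and 0.925. Range by range, replication genes stood at 1.05, 0.901 and 1.05 times in cells high in both, in replication alone and in mitosis alone, and in the cells low in both at 0.621. The mitosis list was below 1 in each range, at 0.885, 0.870 and 0.866 in the same order and 0.564 in cells low in both. The ranges were cut on the replication and mitosis sums themselves, so the ratios of both lists within a range are bounded by the cut. They therefore describe the ranges and cannot show whether the lower sums over all members hold within cells. The histone list was at 1.05, 0.735, 1.59 and 0.425, so its ratio of 0.947 over all members does not describe the single ranges.

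**Figure D5:**
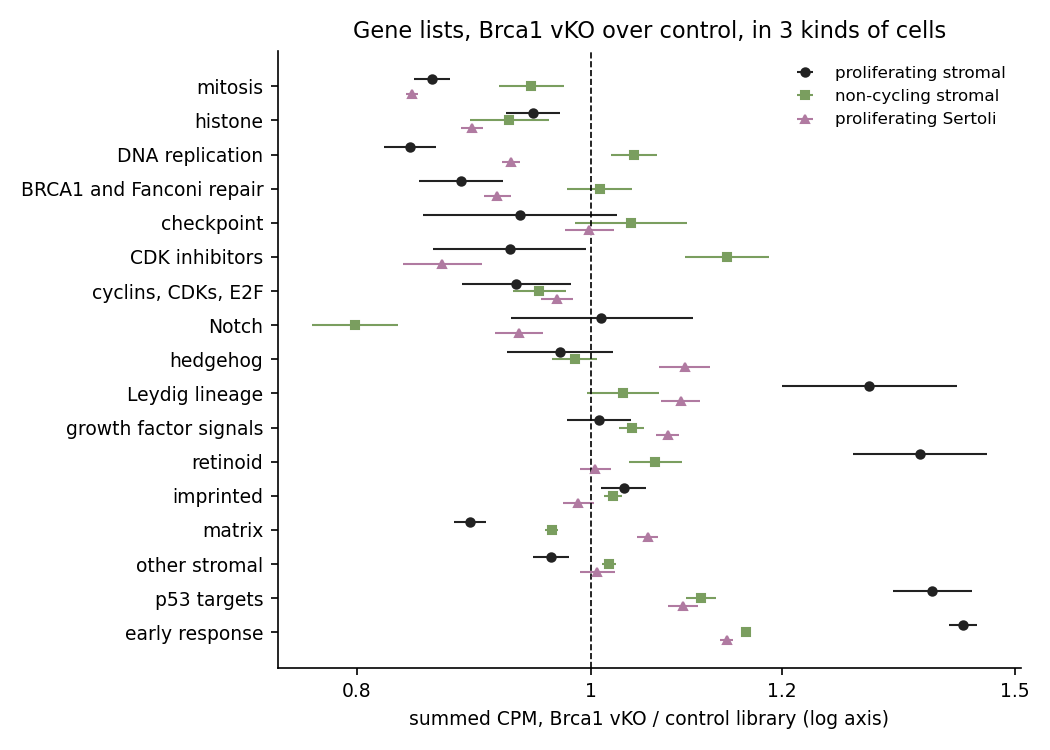
Summed CPM of 17 gene lists in the *Brca1* vKO library divided by the control library (x axis, log scale, 1 marks equal levels) in proliferating stromal, non-cycling stromal and proliferating Sertoli cells; bars are 95% exact intervals for counting error. Early response, p53 target, retinoid and Leydig lineage lists lie between 1.30 and 1.43 in proliferating stromal cells and nearer to 1 in the other cells.

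Early response genes, which are induced within minutes by growth signals and stress, were higher as a sum. Of 20, 16 were above 1 in *Brca1* vKO members and 4 below, with 0 past 2-fold and a median log2 ratio of 0.47. The sum was at 1.43 times (1.41 to 1.45), against 1.16 in non-cycling stromal and 1.14 in proliferating Sertoli cells. In both libraries members lay below their own non-cycling cells. Control members were at 0.752 times (15337 against 20398 CPM) and *Brca1* vKO members at 0.925 times (21883 against 23659 CPM). *Fos*, a subunit of the AP-1 factor, stood at 3863 CPM in control and 5878 CPM in *Brca1* vKO members, *Jun*, its partner, at 1251 and 2096 CPM, and *Ier2* at 897 and 1688 CPM. The heat shock genes *Hspa1a* and *Hspa1b* were at 0.438 and 0.763 times. The list stood between 1.31 and 1.53 times in each of the 4 ranges. The p53 target list was at 1.39 times, but *Btg2*, which is also induced by growth signals and held 76.6% of its UMIs, was at 1.51 times, and the other 22 genes were at 1.06 (0.986 to 1.14). *Cdkn1a*, the best known p53 target, was at 1.25 (0.919 to 1.73), and *Mdm2*, its feedback inhibitor, at 1.16 (0.828 to 1.64).

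Genes of the Leydig lineage and of retinoid handling were higher in *Brca1* vKO members. The 14 Leydig lineage genes summed to 1.30 times (1.201 to 1.42), against 1.03 in non-cycling cells, with 8 of 10 tested above 1 and *Star* past 2-fold. *Star*, which brings cholesterol to the mitochondrion for steroid synthesis, had 6 UMIs in 6 of 97 control members and 122 UMIs in 20 of 185 *Brca1* vKO members, of which 39 were in 1 cell. Without the highest cell of each library it was 10.5 times as high (4.33 to 33.2). In proliferating Sertoli cells *Star* was detected in 22.1% and 26.3% of cells, more often than in members, so the share of members with a UMI is not read as expression. *Insl3*, a Leydig hormone, was 3.35 times as high without the highest cell (2.01 to 5.89), and *Lhcgr*, the receptor for luteinising hormone, 2.22 times (1.41 to 3.61). The 3 synthesis enzymes that the rule holds low summed to 3.48 and 12.6 CPM, with UMIs in 2.06% and 8.11% of members. Of these *Cyp17a1* had 2 and 24 UMIs, *Hsd3b1* 1 and 10, and *Cyp11a1* 4 and 6. The rule capped their sum, so these values describe the chosen cells and do not bear on the Leydig lineage list. *Cyp26b1*, which degrades retinoic acid, stood at 288 and 433 CPM, and *Aldh1a1*, which makes it, at 137 and 214 CPM, and the retinoid list was at 1.37 times (1.28 to 1.46), against 1.06 in non-cycling cells. Sertoli genes outside the rule were also higher in these cells, at 1.76 times in members and 1.40 in non-cycling cells, and the part of free Sertoli RNA was not tested.

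Other genes past 2-fold fell into those spread over many cells and those carried by a few. *Alas1*, the first enzyme of haem synthesis, had 66 UMIs in 42 control members and 380 UMIs in 96 *Brca1* vKO members (3.64 times, 2.80 to 4.80), against 1.31 times in non-cycling cells. *Lsmem1*, a membrane protein of little known function, had 116 UMIs in 21 and 564 UMIs in 60 members (3.07 times), against 1.78 times in non-cycling cells. *Ddit3* (CHOP, a stress-induced factor) had 98 UMIs in 43 and 409 in 116 members (2.64 times), and *Rtl4*, a retrotransposon-derived gene, 27 in 12 and 161 in 33 members (3.77 times). The symbol *Ddit3* is shared with another gene entry of the annotation, whose counts are not included. *Cxcl10*, an interferon-induced chemokine, had 12 UMIs in 7 and 110 in 17 members. *Prkg1* (a cGMP-dependent kinase) and *Ren1* (renin) rested on single cells, which held 74 of 92 and 55 of 75 *Brca1* vKO UMIs. *Vcam1*, an adhesion molecule of the stromal list, had 210 and 692 UMIs (2.08 times, 1.78 to 2.44) and stayed just under 2-fold on the (CPM + 10) scale, with non-cycling cells at 1.02 times.

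Of the 5 genes lower past 2-fold, 4 were haemoglobin genes and the fifth was *Igfbp5*, an insulin-like growth factor binding protein. *Hbb-bs* had 2618 UMIs in control members, 2345 of them in 1 cell, and 122 in *Brca1* vKO members. Without the highest cell of each library, *Hbb-bs* was still at 0.272 times and *Hba-a1* at 0.257 times. Over the 5 red cell genes, leaving out the highest cell of each sum, the ratio was 0.277 in members (0.234 to 0.327) and 0.257 in non-cycling cells (0.242 to 0.273). With every cell kept, non-cycling cells were at 0.115, where 1 control cell held 7996 of 11425 UMIs. *Igfbp5* had 78 UMIs in 30 control members and 45 UMIs in 23 *Brca1* vKO members (0.365 times, 0.247 to 0.533). *Galnt13*, a glycosyltransferase, was at 0.455 times, *Gabrb2*, a GABA receptor subunit, at 0.370 times and *Cdk2ap1*, a kinase-associated protein, at 0.484 times, without passing 2-fold on the (CPM + 10) scale. *Pdgfrb*, the second receptor for platelet-derived growth factor, had 52 and 35 UMIs (0.425 times, 0.269 to 0.666).

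Compared with proliferating Sertoli cells, members had higher sums of replication, mitosis and histone RNA and lower sums of checkpoint RNA. Of 14383 genes with at least 50 UMIs, 1059 (7.36%) were called higher in members and 1257 (8.74%) lower. The replication list summed to 1.54 and 1.40 times, the mitosis list to 1.48 and 1.51 times and the histone list to 1.82 and 1.92 times. Called higher were 7 of 50 replication, 2 of 52 mitosis and 4 of 17 histone genes, with 0 lower, so that the share of mitosis genes called was below that of all genes. The cyclin and kinase list was at 0.977 and 0.940 times, with 2 of 18 higher and 3 lower. The checkpoint list was at 0.763 and 0.714 times, with 1 of 14 lower. Its median log2 ratio was 0.18 in control and -0.04 in *Brca1* vKO, so the lower sum does not describe its typical gene. The inhibitor list was at 3.10 and 3.30 times with 2 of 7 genes called, and without *Cdkn1c* it was at 1.76 and 1.88 times. *Cdkn1c* stood at 267 and 246 CPM in members against 1.40 and 1.71 CPM in proliferating Sertoli cells, and *Cdkn1a* at 31.3 and 39.3 CPM against 2.55 and 3.54. Among D-type cyclins and MYC factors, *Ccnd3* (179 and 192 CPM against 26.1 and 23.5) and *Myc* (34.8 and 49.3 CPM against 3.901 and 3.76) were higher in members, and *Ccnd2* (110 and 151 CPM against 371 and 421) and *Mycn* (3.98 and 3.77 CPM against 46.0 and 40.5) were higher in Sertoli cells. *Cdk6*, a partner of D-type cyclins, stood at 3.48 and 6.60 CPM in members against 102 and 83.9 CPM. *Cdk4*, another such partner, had the most UMIs of the cyclin and kinase list in members, with 23.7% of them. *Wee1* was at 0.348 and 0.351 times and *Dut*, which removes dUTP, at 0.535 and 0.506 times.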

How the data were processed

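Gene by cell UMI counts were deposited as filtered matrices, 1 library per genotype. Per the labels and the study's methods, the authors made these counts with Cell Ranger 6.0.2 from reads aligned to mm10, and no normalization was applied to them. Cells were kept with at least 750 genes and at most 10% mitochondrial UMIs, and members were chosen as stated above. The members and gene lists were chosen with earlier results of these data known. UMIs were summed over cells of 1 kind per library and given as CPM. Ratios carry exact conditional 95% intervals, shares Clopper-Pearson intervals and levels exact Poisson intervals. A gene was tested with at least 50 UMIs over the sums compared and called past 2-fold on (CPM + 10). With 1 mouse per genotype no test across animals exists and no p-value is given. Total UMIs were 120568700 in control and 165062097 in *Brca1* vKO. Doublets were marked with Scrublet in scanpy 1.11.5 (161 and 249 retained cells) and kept, and their removal was an alternative. Ratios were computed with numpy 2.4.6 and scipy 1.17.1, and the calculation was tested on simulated data. The simulated sums carried counting error only, so that test does not cover spread between cells or animals.

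The genes named are those of the rule, the markers, *Brca1* and list members. The 10 highest and 10 lowest ratios of members to non-cycling cells were added, ranked by the library nearer to 0 (at least 100 UMIs, same sign, rule genes left out). So were the 8 and 8 between genotypes (at least 50 UMIs), and the 5 and 5 cycle genes against Sertoli cells.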

Additional observations from a re-analysis of the deposited data

Results flagged for a closer look

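The Leydig lineage list was below the non-cycling level in control members (0.864) and above it in *Brca1* vKO members (1.09), so the libraries moved in opposite directions, and the difference was not tested. With every cell kept, the red cell list was at 2.19 in control and 0.519 in *Brca1* vKO members, and that difference was not tested either. The control direction rested on 1 member, which held 4422 of the 4893 red cell UMIs and was marked by Scrublet. Without the highest cell of each sum the list was at 0.708 in control and 0.762 in *Brca1* vKO, below the non-cycling level in both.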

How the results depend on the processing

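No paired analysis was possible because each genotype has 1 library, and for the same reason no replicate could be left out. The *Brca1* vKO cycling share was 15.7% with a threshold of 2, 7.63% with 5 and 12.4% after thinning to 5000 UMIs, and the ratio to control was 1.04 with a threshold of 2. Members among retained cells were 2.78% in control and 2.66% in *Brca1* vKO with at most 5% mitochondrial UMIs, and 3.21%, 1.56% and 2.62% in *Brca1* vKO with thresholds of 2 and 5 and after thinning. A pseudocount of 1 gave 616 genes higher and 60 lower in members than in non-cycling cells, and 84 higher and 27 lower between genotypes. Genes lower in members numbered 5 with TMM scaling, 1 after thinning, 5 with at most 5% mitochondrial UMIs and 7 with a threshold of 5. Lists lower past 1.2-fold, 0 as reported, numbered 3, 1 and 1 with TMM scaling, at most 5% mitochondrial UMIs and a threshold of 5. Between genotypes, a minimum of 200 UMIs gave 12 genes higher and 3 lower, thinning 13 lower, removal of Scrublet-marked cells 3 lower, and leaving out the haemoglobin-rich member 3 lower. Lists lower past 1.2-fold numbered 1 with means per cell and 2 after thinning, against 0. Among lists whose reported interval left out 1, direction turned between genotypes for the inhibitor list after thinning (1.02). It also turned for the histone list with a threshold of 5 (1.03) and without members low in both lists (1.05). The imprinted list without those members (0.999) turned as well. So did the red cell list in control after removal of Scrublet-marked cells (0.707). The causes were not tested. Leaving out the haemoglobin-rich member, the members low in both lists, the non-cycling cells past the replication value, the highest cell for red cell genes, or *Cdkn1c* from the inhibitor list were alternatives chosen after seeing the data. Of 619 list values under alternatives, these 5 turned to the other side of 1 from a reported interval that left out 1. Lists whose reported interval included 1 were not counted as turned, whichever side they fell on. *Brca1* stayed between 0.467 and 0.660.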
